A study of Mus musculus with 12 samples.

Results

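The genes described here are known as outputs of the ERK pathway. The RNA counts of B16 cells used here hold no measure of ERK activity. The 10 are the ETS factors Etv1, Etv4 and Etv5, inhibitors Spry1, Spry2, Spry4 and Spred1, and MAP kinase phosphatase genes Dusp4, Dusp5 and Dusp6. They were picked by symbol, each matched to its Ensembl identifier, and all 10 were found once among the 56093 entries of the count table and passed the filter on low counts. B16 is a mouse melanoma cell line. The cells were transfected with a short hairpin RNA (shRNA) against Sdc1, the gene of the heparan sulfate proteoglycan syndecan-1, or with a control shRNA against RFP, and were kept without or with interferon gamma (IFNγ) at 10 ng/ml for 24 h. Below, shRFP and shSdc1 stand for the control and knockdown libraries without IFNγ, and "with IFNγ" marks the treated ones; each of the 4 groups had 3 libraries. All were cultures of the B16 line in serum-containing medium. The number of hairpins and of cell clones behind each group is not stated in the labels, and an effect of a hairpin on other transcripts and an effect of losing Sdc1 cannot be told apart. Whether a group's 3 libraries are separate cultures is not in the labels, and the p-values therefore reflect the spread among these libraries, which may be technical.

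ERK is the last kinase of the cascade that runs from receptor tyrosine kinases through RAS, RAF and MEK. Active ERK raises the transcription of the PEA3 factors Etv1, Etv4 and Etv5, in part by releasing them from the repressor Capicua (Cic), and of a set of brakes that act back on the cascade. Sprouty and Spred proteins act between the receptor and RAF, and the DUSP phosphatases remove phosphate from ERK itself. The transcripts of these genes are often read as a measure of ERK pathway output in melanoma, where the cascade is commonly mutated. Syndecan-1 carries heparan sulfate chains, which bind FGFs and other growth factors at the cell surface.

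Depth ran from 14337771 to 21548940 counts a library, and the filter left 14089 genes to test. Sdc1 itself stood at 73.9 to 76.4 CPM, scaled counts-per-million, in shRFP and at 22.1 to 25.7 CPM in the knockdown libraries, and at 79.6 to 102.7 and 25.1 to 27.0 CPM in the corresponding groups with IFNγ, so the hairpin label held in every library. All 9 melanocyte lineage markers were tested, with a summed level of 17609.8 to 17666.7 CPM in shRFP, 13240.5 to 13667.7 in shSdc1, 16950.4 to 18537.6 in shRFP with IFNγ and 11959.2 to 13399.9 in shSdc1 with IFNγ. All 9 passed as lower in the knockdown without IFNγ and 8 with it, against 14.6% and 17.4% of all tested genes. The largest fall in level was that of Pmel, from a mean of 4394 CPM in shRFP to 1798 in shSdc1. Of 16 leukocyte markers 3 passed the filter, and 7, including Cd3e, Cd8a and Adgre1, had 0 counts in every library. The leukocyte markers summed to 3.18 to 3.44, 8.57 to 9.32, 6.79 to 9.16 and 16 to 17.6 CPM in the 4 groups in the same order, and the 6 fibroblast markers, of which 3 were tested, to 44.0 to 47.9, 17.6 to 20.3, 21.4 to 23.9 and 13.0 to 13.9 CPM. No endothelial or keratinocyte marker passed the filter, and their summed levels reached at most 0.547 and 0.0626 CPM. The fibroblast fall was carried by Col1a2, at a mean of 40.4 CPM in shRFP and 12.5 in shSdc1, while Pdgfra (3.39 and 3.75) and Col1a1 (2.05 and 2.82) did not pass; Col1a1 passed as higher with IFNγ, at a log2 fold change of 1.36 (edgeR adjusted p = 0.00332). The leukocyte rise was mostly that of Cd68, a lysosomal protein gene, from 2.45 to 7.25 CPM. The melanocyte, leukocyte and fibroblast sums thus differed between shRFP and shSdc1 along with the genes described below, and their part in the results was not tested. In bulk RNA fewer cells of a type and less RNA per cell cannot be told apart. In the library shSdc1 replicate 3, 1 gene (ENSMUSG00000119584) held 4.79% of counts, against 0.0842% to 0.195% in the other 11. Without that library the number of the 10 genes called was the same in each of the 5 comparisons.

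The 250 bases upstream of the annotated starts were searched for short motifs, since most of these genes rose together in the knockdown. RefSeq promoter windows of build GRCm38.p6 matched 7 of the 10 genes, with 9 starts; coordinates are of that build, which is not the GRCm39 named for the counts. Capicua is known to bind sites that include TGAATGAA and TCAATGAA. The 8-letter forms were searched first, and their first 6 letters, TGAATG and TCAATG, were searched after the sequences had been seen. On both strands together, 4 of the 9 windows held at least 1 of the 6-letter cores. Among all 32851 promoter windows of that length 16.964% held at least 1 core, 2.28% at least 2 and 0.314% at least 3. The downstream one of the 2 Etv5 starts had 3 cores, Dusp6 had 2, and Spry2 and Dusp5 had 1 each. These 4 windows are printed 5′ to 3′ on the strand of the gene, since they hold the matches, with matches in capitals; CATTCA and CATTGA are the cores read on the other strand.
Etv5, chr16:22438369-22438618, minus strand: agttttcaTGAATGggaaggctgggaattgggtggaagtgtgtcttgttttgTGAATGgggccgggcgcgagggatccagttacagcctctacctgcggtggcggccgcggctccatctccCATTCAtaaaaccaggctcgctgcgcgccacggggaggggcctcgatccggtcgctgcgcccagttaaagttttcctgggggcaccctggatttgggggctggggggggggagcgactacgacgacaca
Dusp6, chr10:99262981-99263230, plus strand: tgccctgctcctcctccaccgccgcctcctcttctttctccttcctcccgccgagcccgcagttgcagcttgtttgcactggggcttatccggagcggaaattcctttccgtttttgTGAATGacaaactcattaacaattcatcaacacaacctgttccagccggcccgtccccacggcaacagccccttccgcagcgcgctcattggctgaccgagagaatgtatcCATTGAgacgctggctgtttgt
Spry2, chr14:105896820-105897069, minus strand: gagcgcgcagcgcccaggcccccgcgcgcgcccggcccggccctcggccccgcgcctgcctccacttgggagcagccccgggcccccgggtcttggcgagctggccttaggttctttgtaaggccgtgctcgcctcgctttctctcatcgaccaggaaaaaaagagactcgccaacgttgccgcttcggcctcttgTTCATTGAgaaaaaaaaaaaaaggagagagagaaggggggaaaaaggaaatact
Dusp5, chr19:53528895-53529144, plus strand: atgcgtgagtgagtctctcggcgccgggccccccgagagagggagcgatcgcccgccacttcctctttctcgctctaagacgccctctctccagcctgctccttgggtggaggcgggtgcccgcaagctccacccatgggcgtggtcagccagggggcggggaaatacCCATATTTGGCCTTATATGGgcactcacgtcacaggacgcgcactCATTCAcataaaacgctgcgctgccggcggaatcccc
The Spry2 core was part of the whole 8-letter form TCAATGAA, at positions -54 to -47 from the start, which 0.642% of all windows held. TGAATGAA and TCAATGAA were the only 8-letter forms searched. Whether the other cores lie in further forms of the site was not tested. Dusp5 also held 2 adjoining CArG boxes, the site of serum response factor, at positions -82 to -73 and -72 to -63 from its start, and 1.467% of all windows held at least 1. The windows of Etv1, Spry1, Spred1 and the upstream Etv5 start held none of the 6-letter cores. No window of the 7 genes held the 8-letter TGAATGAA (1.081% of all windows), the ETS site CCGGAAGT (2.877%), an AP-1 site TGACTCA (4.463%), a CRE TGACGTCA (1.546%), a GAS element TTCNNNGAA (7.02%) or an E-box CACGTG (6.021%). The bare ETS core GGAA, which can lie inside CCGGAAGT, was in 93.446% of all windows. Each match is a description of these letters, not of binding.

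Without IFNγ, the knockdown raised 8 of the 10 genes: all 3 PEA3 factors, Spry2, Spry4, Spred1, Dusp5 and Dusp6. None passed as lower, and Spry1 and Dusp4 did not pass. Etv4, Spry4 and Etv5 had the largest log2 fold changes of the 10, at 2.77, 2.51 and 2.42, and Spred1 the smallest that passed, at 0.25. The test was edgeR's quasi-likelihood test with Benjamini-Hochberg adjustment over all genes tested, at an adjusted p of 0.05, and 28.6% of all tested genes passed it, 14.0% as higher and 14.6% as lower. The median log2 fold change of the 10 genes was 1.18, against 0.0 over all tested genes. The 10 genes were chosen with earlier results of these data known. Contrasts of the 10 with all tested genes, here and below, are therefore descriptions and not tests. The library ranges of the 2 groups did not overlap for 8 of the 10, all higher in the knockdown, as they did not for 43.3% of all tested genes (21.4% higher and 21.9% lower).

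**Figure D1:**
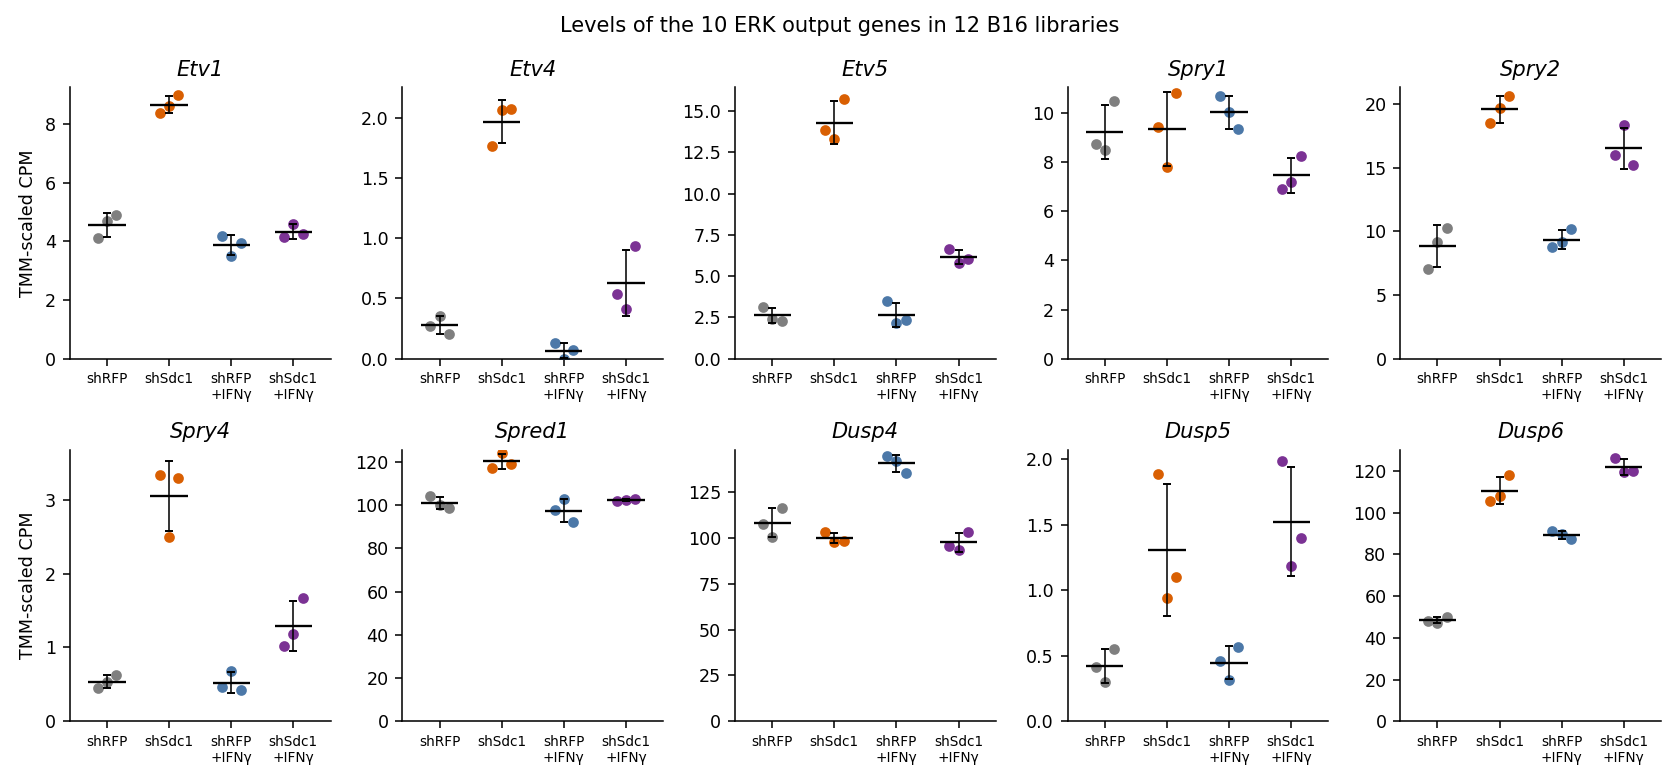
Levels of the 10 genes in CPM (vertical axes, linear, from 0, a different scale for each gene) in the 4 groups (horizontal axes). Points are libraries, lines the group means and bars 1 SD over 3 libraries. Etv5 stood at 13.3 to 15.8 CPM in shSdc1, above the libraries of every other group, and the 4 groups of Spry1 lay between 6.93 and 10.8 CPM.

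Etv5, a PEA3 factor that is a common readout of FGF and ERK signalling, stood at 3.15, 2.43 and 2.28 CPM in the control libraries (replicates 1 to 3) and at 13.9, 13.3 and 15.8 CPM in the knockdown libraries. Every knockdown library lay above every control library, and the log2 fold change was 2.42 ± 0.16 (SE, n = 3 libraries a group; edgeR adjusted p = 1.46e-09). Etv4, a PEA3 factor linked to cell motility and invasion, was scarce in control cells, at 0.274, 0.356 and 0.207 CPM (6, 6 and 3 counts). It stood at 1.76, 2.06 and 2.08 CPM in the knockdown libraries (29, 33 and 34 counts). The ranges lay apart, with a log2 fold change of 2.77 ± 0.39 (edgeR adjusted p = 2.04e-05). Etv1, the PEA3 factor with a known role in the melanocyte lineage and in some melanomas, stood at 4.10, 4.69 and 4.91 CPM in the control libraries and at 8.38, 8.63 and 8.98 CPM in the knockdown libraries. Its ranges were also apart, and the change was smaller, 0.93 ± 0.13 on the log2 scale (edgeR adjusted p = 1.83e-05).

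Among the Sproutys, inhibitors of receptor tyrosine kinase signalling, Spry4 stood at 0.456, 0.534 and 0.622 CPM in the control libraries and at 3.34, 2.5 and 3.30 CPM in the knockdown libraries. All 3 knockdown libraries were above all 3 controls, and the log2 fold change was 2.51 ± 0.29 (edgeR adjusted p = 2.14e-06). It rests on 9 to 10 counts per control library and 40 to 55 per knockdown library. Spry2 stood at 7.07, 9.14 and 10.3 CPM in the control libraries and at 18.5, 19.6 and 20.6 CPM in the knockdown libraries. The groups did not overlap, and Spry2 rose by 1.17 ± 0.12 (log2, edgeR adjusted p = 4.13e-07). Spry1 was different, at 8.75, 8.48 and 10.5 CPM in the control libraries and at 9.42, 7.82 and 10.8 CPM in the knockdown libraries. Its ranges overlapped and its log2 difference of 0.02 ± 0.13 did not pass (edgeR adjusted p = 0.92). Spred1, a related membrane protein that recruits the RAS GTPase-activating protein neurofibromin, stood at 104.3, 100.3 and 98.9 CPM in the control libraries and at 117, 124 and 119 CPM in the knockdown libraries. The ranges lay apart with a small rise of 0.25 ± 0.05 on the log2 scale (edgeR adjusted p = 0.000448).

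Of the phosphatase genes, Dusp6, whose cytoplasmic product is specific for ERK, stood at 48.2, 47.2 and 49.8 CPM in the control libraries and at 106, 108 and 118 CPM in the knockdown libraries. Every knockdown library was above every control, with a log2 fold change of 1.19 ± 0.05 (edgeR adjusted p = 3.55e-12). Dusp5, which encodes a nuclear ERK phosphatase, stood at 0.410, 0.297 and 0.553 CPM in the control libraries and at 1.88, 0.938 and 1.10 CPM in the knockdown libraries. The ranges lay apart, and shSdc1 replicate 1 was the highest of its group; the log2 fold change was 1.64 ± 0.39 (edgeR adjusted p = 0.00368), from 5 to 9 counts per control library and 15 to 31 per knockdown library. Dusp4, which encodes a nuclear phosphatase of ERK and other MAP kinases, was abundant, at 108, 101 and 117 CPM in the control libraries and at 104, 98.2 and 98.7 CPM in the knockdown libraries. Its ranges overlapped, and its log2 difference was -0.11 ± 0.05 (edgeR adjusted p = 0.133). Leaving out shRFP replicate 2 brought Dusp4 past the threshold as lower, at an edgeR adjusted p of 0.0459.

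With IFNγ present, 8 of the 10 genes passed for the knockdown. Etv4, Etv5, Spry2, Spry4, Dusp5 and Dusp6 were higher, Spry1 and Dusp4 were lower, and Etv1 and Spred1 did not pass. Among all tested genes 36.3% passed in this comparison, 18.9% as higher and 17.4% as lower. The median log2 fold change of the 10 genes was 0.63, against 0.02 over all tested genes. The ranges lay apart for these 8 genes, and for 44.9% of all tested genes (23.1% higher and 21.8% lower).

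**Figure D2:**
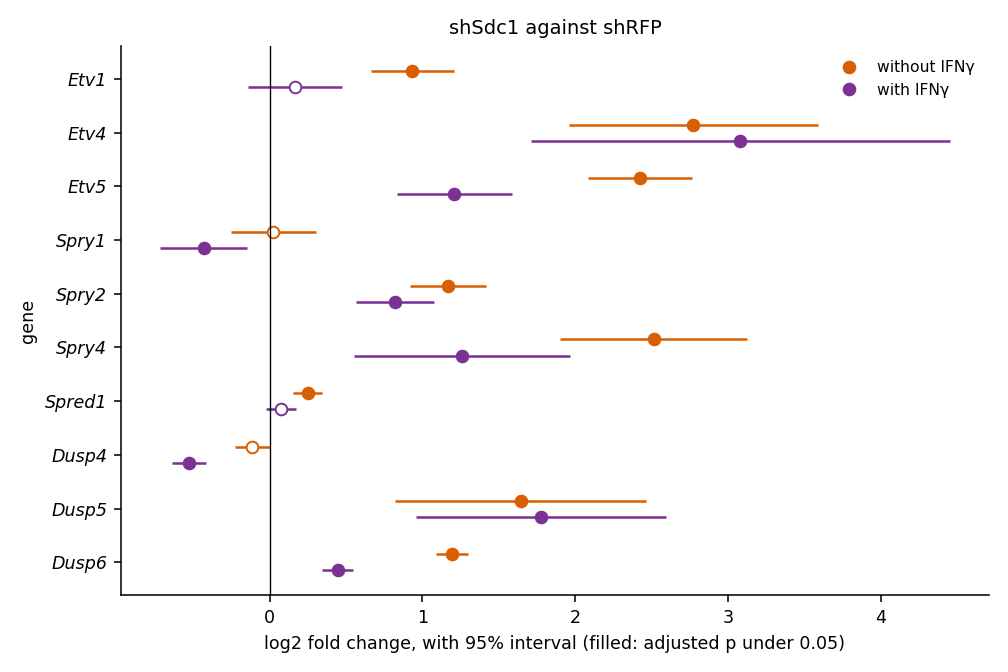
Log2 fold change of shSdc1 against shRFP (horizontal axis) for the 10 genes without IFNγ and with IFNγ. Points are edgeR estimates, filled where the adjusted p was under 0.05, and bars are 95% intervals. Etv5 moved from 2.42 without to 1.21 with IFNγ and Dusp6 from 1.19 to 0.45, whereas Dusp5 stood at 1.64 and 1.78.

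Etv5 stood at 3.51, 2.18 and 2.32 CPM in shRFP with IFNγ, against 6.66, 5.79 and 6.06 CPM in shSdc1 with IFNγ. The groups did not overlap, and the log2 fold change was 1.21 ± 0.18 (edgeR adjusted p = 3.3e-05). Etv4 was at the edge of detection in shRFP with IFNγ, at 2, 0 and 1 counts (0.132, 0.0 and 0.0704 CPM), where 3 counts in the library at 0 would be 0.187 CPM. It had 10, 7 and 14 counts (0.537, 0.413 and 0.933 CPM) in shSdc1 with IFNγ. All knockdown libraries were higher, and the ratio of the group totals, 31 against 3 counts, was 9.27 after scaling, with an exact 95% interval of 2.89 to 47.4 that covers counting error only. The edgeR fold was 3.08 ± 0.65 on the log2 scale (adjusted p = 0.0011). Leaving out 1 library gave 2.50 to 3.94, the highest without shRFP with IFNγ replicate 1. Etv1 stood at 4.17, 3.49 and 3.94 CPM in shRFP with IFNγ, against 4.13, 4.61 and 4.27 CPM in shSdc1 with IFNγ. These ranges overlapped, and the log2 difference of 0.17 ± 0.15 did not pass (edgeR adjusted p = 0.405).

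Spry2 stood at 8.73, 9.16 and 10.1 CPM in shRFP with IFNγ, against 16, 18.3 and 15.2 CPM in shSdc1 with IFNγ. The ranges were apart, and Spry2 rose by 0.82 ± 0.12 (log2, edgeR adjusted p = 3.02e-05). Spry4 stood at 0.463, 0.685 and 0.423 CPM against 1.02, 1.18 and 1.67 CPM, again with no overlap and with a log2 fold change of 1.26 ± 0.34 (edgeR adjusted p = 0.00668). Spry1 moved the other way, from 10.7, 10.03 and 9.37 CPM to 6.93, 7.21 and 8.26 CPM. Every knockdown library lay below every control, and Spry1 fell by 0.43 ± 0.14 (log2, edgeR adjusted p = 0.0177). That call ended without shRFP with IFNγ replicate 1 (adjusted p = 0.0592), shSdc1 with IFNγ replicate 1 (0.0662) or its replicate 2 (0.0542). Spred1 stood at 97.8, 103 and 92.0 CPM in shRFP with IFNγ, against 102.0, 103 and 103 CPM in shSdc1 with IFNγ. These ranges overlapped and its log2 difference was 0.07 ± 0.05 (edgeR adjusted p = 0.26).

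Dusp6 stood at 91.2, 89.8 and 87.3 CPM in shRFP with IFNγ, against 126, 119.7 and 119.8 CPM in shSdc1 with IFNγ. The groups did not overlap, and the log2 fold change was 0.45 ± 0.05 (edgeR adjusted p = 7.46e-07). Dusp5 stood at 0.463, 0.312 and 0.563 CPM against 1.99, 1.18 and 1.4 CPM, with ranges apart and a log2 fold change of 1.78 ± 0.39 (edgeR adjusted p = 0.00148). Dusp4 was lower in the knockdown, at 145, 142 and 136 CPM in shRFP with IFNγ against 95.9, 93.9 and 103 CPM in shSdc1 with IFNγ. All 3 knockdown libraries were below all 3 controls, and Dusp4 fell by 0.53 ± 0.05 (log2, edgeR adjusted p = 4.02e-07).

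The difference between these knockdown effects was tested as an interaction. It passed for 4 of the 10 genes, Etv1, Etv5, Dusp4 and Dusp6, all towards a lower effect with IFNγ, where 9.73% of all tested genes passed, 4.58% as higher and 5.15% as lower. On the log2 scale the interaction was -1.21 ± 0.25 for Etv5 (edgeR adjusted p = 0.00541), -0.77 ± 0.20 for Etv1 (0.019), -0.75 ± 0.07 for Dusp6 (7.47e-06) and -0.41 ± 0.08 for Dusp4 (0.00267). Etv5 and Dusp6 rose less with IFNγ, Etv1 rose without IFNγ and did not pass with it, and Dusp4 fell with IFNγ and did not pass without it. The Etv1 call ended without shRFP replicate 1, at an adjusted p of 0.0545. Spry4 had an interaction of -1.25 ± 0.47, as large as that of Etv5, but at its low counts it did not pass (edgeR adjusted p = 0.0989). For Etv4 (0.31 ± 0.71) and Dusp5 (0.13, edgeR adjusted p = 0.918) a difference was not detectable at this depth, and Spry1 (-0.46, adjusted p = 0.134), Spry2 (-0.34, 0.214) and Spred1 (-0.18, 0.0953) did not pass either.

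With IFNγ alone, 2 of the 10 genes passed in control cells, Dusp6 and Dusp4 as higher, and none passed as lower. The share of all tested genes that passed was 31.6%, 17.2% as higher and 14.4% as lower, and 2 of 10 is not far below it. At the low counts of Etv4, Spry4 and Dusp5 in these groups, the lack of a call does not show that a gene was unchanged. Upper-quartile scaling turned the split of all calls from 2422 higher and 2024 lower to 1759 and 2811, and Etv4 then passed as lower. Dusp6 went from 47.2 to 49.8 CPM in shRFP to 87.3 to 91.2 CPM with IFNγ, a log2 fold change of 0.89 ± 0.05 (edgeR adjusted p = 6.06e-11). Dusp4 went from 101 to 117 CPM to 136 to 145 CPM, with a log2 fold change of 0.38 ± 0.05 (edgeR adjusted p = 2.72e-05). Ranges lay apart for both as higher, and for Etv4 as lower, where 41.4% of all tested genes had ranges apart (21.7% higher and 19.7% lower). Etv4 went from 15 to 3 counts over the group, a scaled ratio of 4.26 with an exact 95% interval of 1.2 to 22.9. Its edgeR adjusted p was 0.0548, and it passed under upper-quartile scaling (0.0476) and without shRFP with IFNγ replicate 1 (0.0401) or shSdc1 with IFNγ replicate 3 (0.0477). Etv5, at 2.28 to 3.15 CPM without and 2.18 to 3.51 CPM with IFNγ, did not pass (edgeR adjusted p = 0.993), and Spry4, at 0.456 to 0.622 and 0.423 to 0.685 CPM, had an adjusted p of 1.0. Etv1 (log2 difference -0.23), Spry1 (0.13), Spry2 (0.10), Spred1 (-0.05) and Dusp5 (0.09) did not pass, with edgeR adjusted p-values from 0.239 to 0.908.

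**Figure D3:**
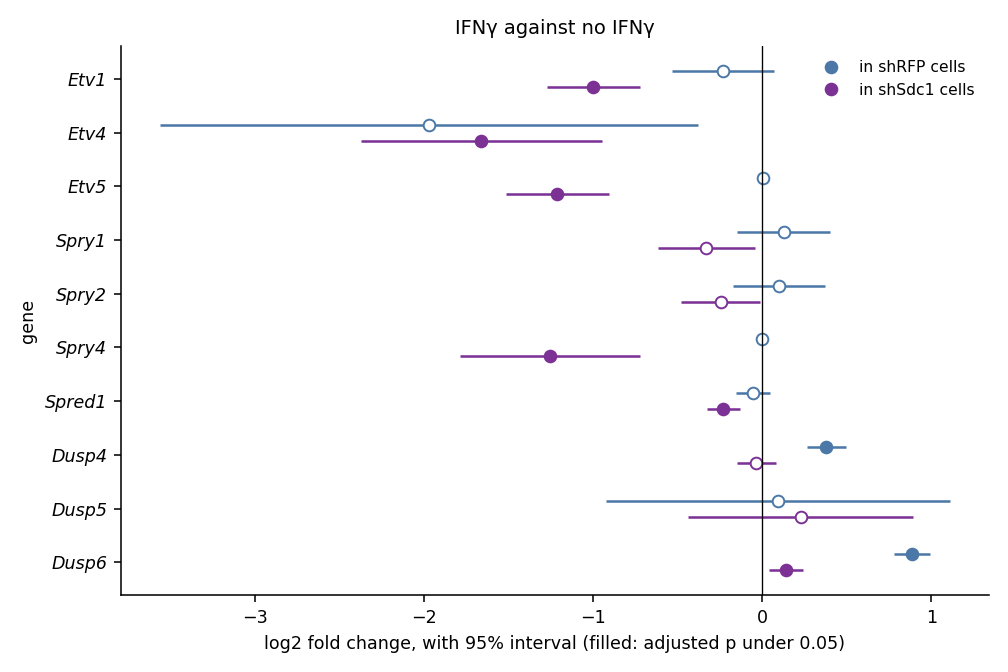
Log2 fold change with IFNγ against without (horizontal axis) for the 10 genes in shRFP and in shSdc1 cells. Points are edgeR estimates, filled where the adjusted p was under 0.05, and bars are 95% intervals, not drawn for Etv5 and Spry4 in shRFP cells, whose difference was near 0. Etv5 fell by 1.21 and Spry4 by 1.25 in shSdc1 cells.

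In the knockdown cells IFNγ lowered 5 of the 10 genes and raised 1, where 30.5% of all tested genes passed, 17.5% as higher and 13.0% as lower. Upper-quartile scaling turned the split of all calls, from 2469 higher and 1826 lower to 2047 and 2495, and then 6 of the 10 genes passed as lower and 0 as higher. Etv4 fell by 1.66 ± 0.34 (log2, edgeR adjusted p = 0.000956), Spry4 by 1.25 ± 0.25 (0.000885), Etv5 by 1.21 ± 0.14 (2.65e-06), Etv1 by 1.00 ± 0.13 (8.53e-06) and Spred1 by 0.23 ± 0.05 (0.000837). The libraries with IFNγ lay below those without for all 5 and for Spry2, and above them for Dusp6, where 45.9% of all tested genes had ranges apart (24.7% higher and 21.2% lower). The levels they fell to differed: Etv1 and Spred1 in shSdc1 with IFNγ overlapped with shRFP with IFNγ, whereas Etv4, Etv5 and Spry4 were still above it. Dusp6 rose by 0.14 ± 0.05 (edgeR adjusted p = 0.0306), from 106 to 118 CPM to 119.7 to 126 CPM. The Dusp6 call ended under upper-quartile scaling (0.10, adjusted p = 0.130), DESeq2's Wald test (0.0559) and no filter (0.0947). It also ended without shSdc1 replicate 1 (0.156) or 2 (0.115), or without shSdc1 with IFNγ replicate 1 (0.144) or 2 (0.0538). Spry2 stood lower in all 3 libraries with IFNγ but its log2 difference of -0.24 did not pass (edgeR adjusted p = 0.108; 0.0376 when the 2 groups were fitted alone). Spry1 (-0.33, edgeR adjusted p = 0.0749), Dusp4 (-0.04, 0.67) and Dusp5 (0.23, 0.637) did not pass. Spry1 passed under upper-quartile scaling (0.0426) and without shSdc1 replicate 2 (0.0234). The interaction given above is also the test of whether the IFNγ effect differed between shSdc1 and shRFP cells, and Spry4, Etv4 and Spred1 did not pass it.

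**Figure D4:**
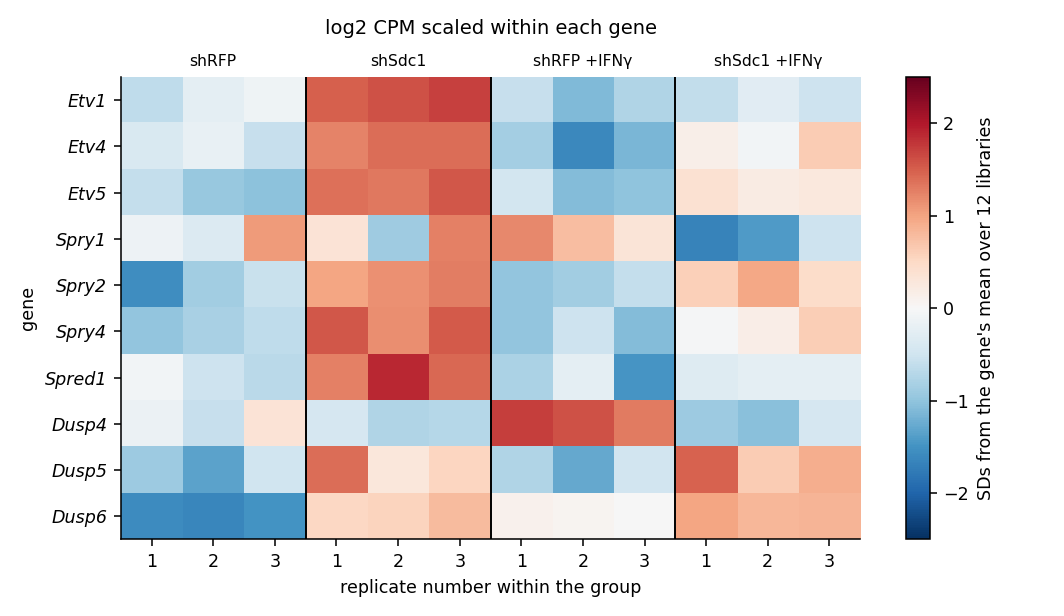
Each gene's log2 CPM in the 12 libraries, centred and scaled over the libraries (color, in SD units); rows are the 10 genes and columns the libraries by group. Etv1, Etv4, Etv5, Spry2, Spry4, Spred1, Dusp5 and Dusp6 have lower values in the shRFP libraries than in shSdc1, and Dusp4 has its highest values in shRFP with IFNγ.

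By the order of the group levels the genes fell into several forms. Etv1, Etv4, Etv5, Spry4 and, by a small amount, Spred1 were highest in shSdc1, with shSdc1 with IFNγ lower than it. For these genes except Etv4, the ranges of the control groups with and without IFNγ overlapped. Spry2 and Dusp5 had higher ranges in both knockdown groups than in both control groups, and neither pair with the same hairpin passed for IFNγ. Dusp6 was lowest in shRFP, followed by shRFP with IFNγ, shSdc1 and shSdc1 with IFNγ with no overlap between neighbours, the last step being the small one above. Dusp4 was highest in shRFP with IFNγ. Per kilobase of annotated exon, Dusp4, Dusp6 and Spred1 had mean levels of 39.6, 15.5 and 14.9 CPM per kb in shRFP. Spry2 and Spry1 followed at 4.23 and 3.18 CPM per kb, and the others stood at 0.638 (Etv5), 0.343 (Etv1), 0.170 (Dusp5), 0.113 (Spry4) and 0.0899 (Etv4). In shSdc1, Dusp6 reached 35.3 ± 2.0 CPM per kb (mean ± SD, n = 3), a level that overlapped in its spread with Dusp4 at 36.5 ± 1.1, and Etv5 reached 3.49 ± 0.31, close to Spry1 at 3.22 ± 0.52.

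The genes of most similar pattern over the 12 libraries were ranked by Pearson's r of log2 CPM, as a description with no p; the 12 points share the 4 groups. For Etv4 they were Pknox2 (r = 0.971), Fign (0.968) and Slc35f1 (0.963), and Pknox2 stood at mean levels of 5.22 CPM in shRFP, 12 in shSdc1, 3.66 in shRFP with IFNγ and 8.21 in shSdc1 with IFNγ. For Spry4 they were Ptpn9 (0.968), Sin3a (0.965) and Wdr35 (0.963), all of smaller amplitude, with Ptpn9 between 38.4 and 49.6 CPM in the group means. For Dusp6 they were 1810055G02Rik (0.985), Agt (0.981) and Ftsj3 (0.980). Agt, which encodes angiotensinogen, stood at 10.9, 24.0, 20.1 and 30.3 CPM in the same order of groups.

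Other genes of the pathway were taken from 7 lists, also chosen with earlier results of these data known, with 77 tested genes. Of these 44.2% passed in the knockdown without IFNγ and 48.1% with it, against the 28.6% and 36.3% of all tested genes. For IFNγ 40.3% passed in control and 35.1% in knockdown cells, against 31.6% and 30.5%. Of 18 listed genes known to be induced by ERK outside the 10, 15 were tested; 8 were higher and 1 was lower in the knockdown without IFNγ, and 9 and 1 with IFNγ, with median log2 fold changes of 0.55 and 0.47. The lower gene was Phlda1 in both, at -0.33 ± 0.07 (edgeR adjusted p = 0.00131) and -0.47 ± 0.07 (5.52e-05). Phlda1 is named here outside the rule for naming. Without IFNγ the ephrin receptor gene Epha2 rose by 2.53 ± 0.46 (log2, edgeR adjusted p = 0.000383), the cyclin gene Ccnd1 by 1.43 ± 0.06 (1.22e-12), the chromatin factor gene Hmga2 by 1.19 ± 0.07 (5.36e-10) and the EGF family ligand gene Hbegf by 0.87 ± 0.16 (0.0003). The immediate early gene Egr1 and the cytokine gene Lif passed both without IFNγ, at 2.49 ± 0.45 (edgeR adjusted p = 0.000309) and 3.00 ± 0.63 (0.00124), and with it, at 3.56 ± 0.52 (2.53e-05) and 3.45 ± 0.48 (1.42e-05). Neither interaction passed, at adjusted p-values of 0.432 and 0.853. Their control groups were near the floor, with 9 and 4 counts of Egr1 and 4 and 7 of Lif over the 3 libraries without and with IFNγ, so these folds are imprecise; their values without IFNγ lay under the level for naming and were added after they were seen. For IFNγ itself, 1 of the 15 was higher and 3 lower in control cells, and 3 and 3 in knockdown cells; Ier3 rose in both, by 0.50 and 0.54.

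Of the 6 tested (7 listed) MAP kinase phosphatase genes outside the 10, 2 were higher and 0 lower in the knockdown without IFNγ, Dusp16 by 0.44 and Dusp8 by 0.39, both of which encode phosphatases that act mainly on JNK and p38. With IFNγ 3 were higher and 1 was lower, with Dusp8 at 0.85, Dusp16 at 0.54 and Dusp10 at 0.48 as higher and Dusp2, a nuclear phosphatase gene, at -0.79 ± 0.25 (edgeR adjusted p = 0.0182). The Dusp2 call ended without shRFP with IFNγ replicate 2 or without replicate 1 or 2 of shSdc1 with IFNγ. IFNγ itself raised 1 of the 6 phosphatase genes and lowered 2 in control cells, and raised 2 and lowered 0 in knockdown cells. Dusp10, another JNK and p38 phosphatase gene, rose with IFNγ by 0.85 in control and 0.96 in knockdown cells. Dusp8 and Dusp1 fell in control cells, at -0.59 and -0.38. Of 11 other tested (13 listed) brakes on RAS and ERK, 3 were higher and 2 lower without IFNγ and 3 and 1 with it. Among all tested genes 28.6% passed in the knockdown without IFNγ and 36.3% with it. The 2 of 6 phosphatase genes without IFNγ and the 4 of 11 brakes with it are close to these shares. The 4 of 6 phosphatase genes with IFNγ and the 5 of 11 brakes without it are above them. The Spred1 relative Spred2 rose by 0.80 ± 0.06 (log2, edgeR adjusted p = 1.04e-08) and by 0.68 ± 0.06 with IFNγ (1.24e-07). Sulf2, which encodes an enzyme that removes sulfate from heparan sulfate chains, rose by 0.43 and 0.32, and Spred3 passed with IFNγ, at 1.09 ± 0.15 (edgeR adjusted p = 1.15e-05). For IFNγ itself, 1 of the 11 brakes rose and 5 fell in control cells, and 1 rose and 4 fell in knockdown cells. Among all tested genes 31.6% and 30.5% passed in these comparisons.

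The cascade itself showed no common direction. Of its 20 tested genes (21 listed) 3 were higher and 3 lower in the knockdown without IFNγ, and 5 and 5 with it. The medians were -0.04 and 0.02. The 6 of 20 that passed without IFNγ are close to the 28.6% of all tested genes, and the 10 of 20 with IFNγ are above the 36.3%. The scaffold gene Ksr1 rose by 0.88 and 0.86 in the same comparisons, while Sos2, an exchange factor for RAS, fell by 0.69 and 0.52, Mapk3, the gene of ERK1, by 0.40 and 0.37, and Nras by 0.37 and 0.36. IFNγ raised 6 and lowered 3 of the cascade genes in control cells and raised 4 and lowered 2 in knockdown cells, and Mras rose in both, by 1.5 and 1.61. Among all tested genes 31.6% passed for IFNγ in control cells and 30.5% in knockdown cells. Of 7 tested (16 listed) FGF receptor, adaptor and ligand genes 2 were higher and 1 lower in the knockdown without IFNγ and 1 and 0 with it. For this list and those below, the shares of all tested genes that passed were 28.6% without IFNγ and 36.3% with it. The list of 7 genes for repression and turnover of PEA3 proteins had 2 higher and 1 lower, then 1 and 1. None of the 3 calls without IFNγ held throughout. Cic, the Capicua gene, at 0.16, lost its call without shRFP replicate 1, shSdc1 replicate 2 or shSdc1 replicate 3. Atxn1, whose product works with Capicua, at 0.27, lost it without replicate 1 or 2 of either group. Cop1, a ubiquitin ligase gene, at -0.21, lost it without shRFP replicate 3 or shSdc1 replicate 1 or 2. With IFNγ Atxn1 was at 0.56 and Cop1 at -0.18, and the Cop1 call again ended when the 2 groups were fitted alone, or without replicate 2 of the control or replicate 1 or 2 of the knockdown. Of 11 other tested (22 listed) ETS factor genes 3 were higher and 3 lower in the knockdown without IFNγ and 4 and 2 with it. Elk3 stood at 0.50 and 0.38 and Etv6 at 0.40 and 0.39. IFNγ itself raised 3 and lowered 3 of these genes in control cells, and raised 4 and lowered 3 in knockdown cells, where 31.6% and 30.5% of all tested genes passed. Elf4, Elf1 and Etv6 rose in both cell populations, by 0.55 to 1.00, and Elk3 fell in both, at -0.38 and -0.50.

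**Figure D5:**
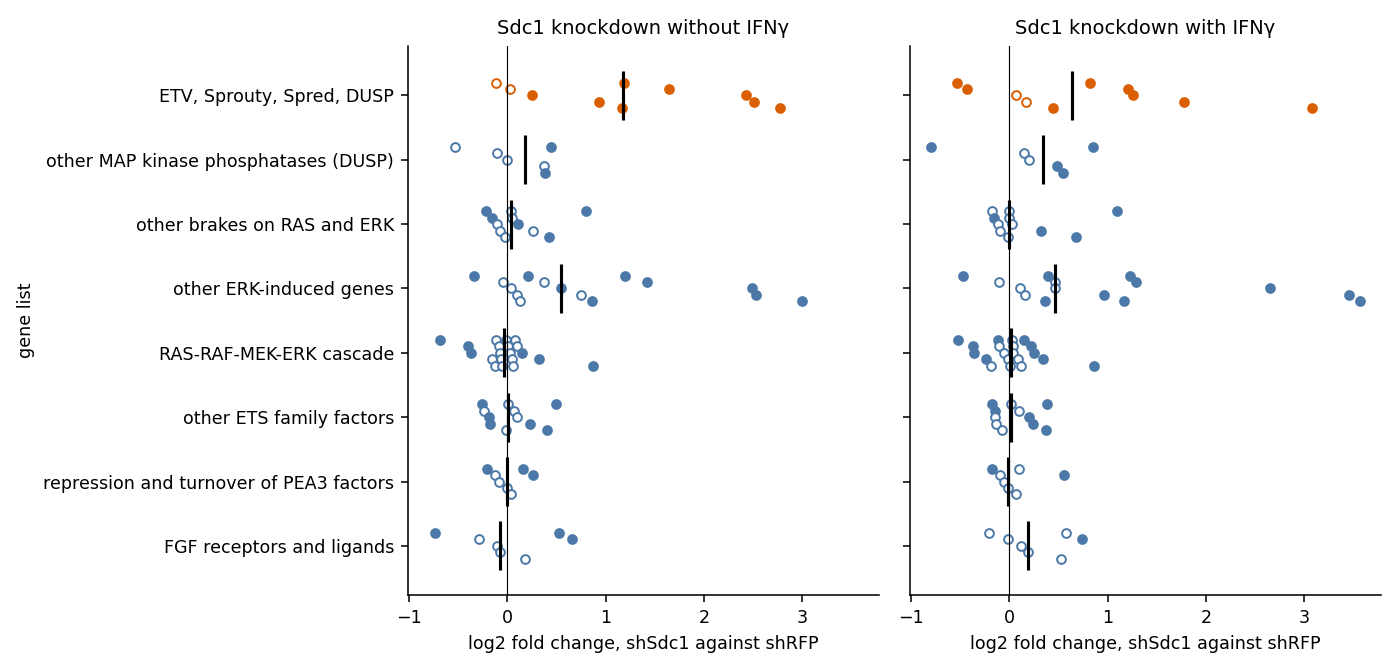
Log2 fold change of shSdc1 against shRFP (horizontal axes) for the tested genes of each list (rows), without IFNγ (left) and with IFNγ (right). Each point is a gene, filled where the adjusted p was under 0.05, and thick black lines are list medians; the median of the 10 genes was 1.18 and that of the other ERK-induced genes 0.55 in the knockdown without IFNγ, and the median of the cascade -0.04.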

How the data were processed

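Paired-end mRNA libraries of 12 samples were counted per gene. The authors deposited raw counts, whole numbers that were not normalized; the submitters' processing notes name HISAT2 2.0.5, HTSeq and Trimmomatic, with the build GRCm39, while the settings, annotation and strandedness were not given in the sources used here. All columns of the table were matched to samples by name. Symbols and exon lengths came from a GENCODE annotation of GRCm38.

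Counts were scaled by TMM and filtered by filterByExpr (minimum count 10, total 15), and 14089 genes were tested with edgeR 4.0.16 in R 4.3.3, with 1 coefficient per group over all 12 libraries (8 residual degrees of freedom). Tests were two-sided, adjusted by the Benjamini-Hochberg method over all genes of a comparison. The SE is the size of the log2 fold change over the square root of F. Exact 95% intervals and floors of 3 counts cover counting error only. The same steps were run on counts simulated with the same dispersion for all genes, which is simpler than these data. No result here rests on that run.

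The 10 genes and all lists were chosen with earlier results of these data known. Of each list, up to 4 genes per comparison could be named, those of largest change that passed and reached a mean of 1 CPM in either group; genes of like pattern needed 5 CPM, 3 for each of 3 genes. Alternatives were DESeq2 size factors, the Wald test of DESeq2 1.42.0, upper-quartile scaling, no filter, 1 CPM in 3 libraries, the replicate block, the 2 groups alone, a fit without ENSMUSG00000119584, and leaving out each library. Promoters were searched, and figures drawn, in Python 3.11.15 (pandas 2.3.3, matplotlib 3.10.9). Replicates of a group differed by more than sampling noise. Dusp5 and Spry1 overlap a gene on the opposite strand, with 0 and 6 counts over all libraries.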

Additional observations from a re-analysis of the deposited data

Results flagged for a closer look

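The effect of the knockdown differed between cells without and with IFNγ by the interaction test for 4 of the 10 genes, and for 7 of the 77 tested genes of the other lists (9.09%), a share close to the 9.73% of all tested genes. On the log2 scale the interaction, the effect with IFNγ minus that without, was -1.21 for Etv5 (edgeR adjusted p = 0.00541), -0.77 for Etv1 (0.019), -0.75 for Dusp6 (7.47e-06) and -0.41 for Dusp4 (0.00267). Of the brakes, Spred3 stood at 0.83 (0.0155), a call lost without shSdc1 with IFNγ replicate 2. Rasa3, a RAS GTPase-activating protein gene, stood at -0.20 (0.0273), a call lost with the replicate block and without replicate 1 or 2 of shRFP, replicate 1 or 2 of shSdc1, or, with IFNγ, without replicate 1 of the control or 2 or 3 of the knockdown. The phosphatase gene Dusp8 stood at 0.47 (0.0339), lost without replicate 2 or 3 of shRFP, replicate 1 or 2 of shSdc1, or, with IFNγ, without replicate 1 or 2 of the control or 3 of the knockdown. The immediate early gene Junb stood at 0.87 (0.00637). Of the cascade, the adaptor gene Gab1 stood at 0.47 (0.0071), Hras at -0.50 (0.00562) and the MEK2 gene Map2k2 at -0.24 (0.0177), the last lost without shRFP replicate 2 or shSdc1 replicate 1.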

How the results depend on the processing

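Of 28 calls for the 10 genes, 25 held in every alternative run, and no call turned its direction; the 3 that were lost somewhere were Spry1 in the knockdown with IFNγ, Dusp6 for IFNγ in the knockdown and Etv1 in the interaction. Over 990 alternative values 971 stayed on the same side of the threshold. Some values of tests that did not pass changed sign. For Spry1 in the knockdown without IFNγ the alternatives ran from -0.09 to 0.14. Of the 22 tests that did not pass, 5 passed in at least 1 alternative, all given above except the interaction of Spred1, whose edgeR adjusted p was 0.0275 without shRFP with IFNγ replicate 3. Without 1 library the 10 genes called numbered 8 to 9 and 7 to 8 for the knockdown without and with IFNγ, 2 to 3 and 5 to 6 for IFNγ in control and knockdown cells, and 3 to 5 in the interaction. Over all tested genes the interaction calls, 1371 in the full set, ranged from 789 (without shSdc1 replicate 1) to 1999 (without shRFP with IFNγ replicate 3), with 847, 839 and 822 without shRFP replicate 1, shRFP replicate 2 and shSdc1 with IFNγ replicate 2; the cause was not tested. Upper-quartile scaling turned the split of all calls for IFNγ in both cell populations, as given above. Libraries with the same replicate number did not deviate together (18 pairs, r from -0.0677 to 0.0326; 1 of 12 libraries correlated best with its own number). With the replicate block the knockdown without IFNγ gave 3720 calls against 4024 and the interaction 1028, and the 10 genes kept 8, 8, 2, 6 and 4 calls in the 5 comparisons. Depth limits Etv4, Spry4 and Dusp5, each with under 60 counts in every library.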
